A study of Mus musculus with 18 samples.

Results

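The comparison asked whether forcing 4T1 cells to express Wisp1 changed their transcriptome differently on collagen than on bare plastic. It was computed for every gene as a difference of differences on the log2 scale, the Wisp1 line minus the empty vector (EV) line on collagen less the same difference on plastic. This quantity is called the interaction below, and a positive value means that the Wisp1 effect was more positive on collagen. It used 12 of the 18 libraries, chosen by their titles, with 3 libraries in each of 4 groups, and the 6 libraries of parental cells, untreated or given TGFb1, were not used.

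4T1 is a mouse mammary carcinoma line. All 12 cultures carried a lentiviral vector and had been selected with puromycin as a stable line, and all were lysed before confluence after growth in RPMI with serum and antibiotics. The EV plastic and EV collagen groups held the line made with the empty vector, grown in tissue culture plastic or in dishes coated with collagen type I. The Wisp1 plastic and Wisp1 collagen groups held the line made with the Wisp1 vector on the same 2 surfaces. Each construct is represented by 1 stable line, so an effect of Wisp1 and any other difference between the 2 lines cannot be told apart. The labels give neither the promoter that drives Wisp1 nor whether a line is a clone or a pool. The labels do not say that replicates were separate cultures, so p-values measure only the spread between these libraries.

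Wisp1, also called Ccn4, encodes a CCN family protein that is secreted into the matrix, and was first found as a gene induced by Wnt1 in mammary epithelial cells. CCN proteins bind integrins, proteoglycans and growth factors in the extracellular matrix and alter how cells respond to them. Collagen type I is the main fibrillar collagen of the tumour stroma, and epithelial cells sense it through collagen-binding integrins such as the one built with Itga2 and through discoidin domain receptors.

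The libraries held 37552858 to 94401699 counts assigned to genes. Summed levels of 10 mammary epithelial markers were 3465 to 4977 CPM (read counts scaled to the TMM-adjusted library size), against 25.4 to 51.1 CPM for 12 fibroblast markers, 9.16 to 24.4 CPM for 14 leukocyte markers (9.16 to 11.4 in EV plastic, 9.94 to 15.7 in Wisp1 plastic, 12.4 to 19.1 in EV collagen and 14.97 to 24.4 in Wisp1 collagen) and 36.2 to 51.0 CPM for 10 endothelial markers. The fibroblast genes Lum and Thy1, the leukocyte genes Cd3e and Ly6g and the endothelial gene Cldn5 were at 0 in every library. Most of the remaining sums came from Pdgfra (14.1 to 32.6 CPM) and Postn (4.05 to 34.2 CPM), from Lyz2 (2.96 to 13.3 CPM) and Cd68 (3.22 to 7.66 CPM), and from Flt1 (35.8 to 50.6 CPM). Median interactions were 0.03 over the 6 fibroblast markers tested, -0.11 over 8 leukocyte markers and -0.15 over 2 endothelial markers, and the part of these markers in the results was not tested. Of the epithelial marker list, 10 of 10 members had an interaction above 0, with a median of 0.07 on the log2 scale, and without Wisp1 collagen replicate 1 these were 6 of 10 and 0.01. Mitochondrial genes took 0.567 to 0.617% of gene counts on plastic and 0.766 to 1.07% on collagen, and the part of this difference in the results was not tested.

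Wisp1 itself was the gene with the smallest interaction p-value, and its induction was larger on collagen on every scale. Its level was 36.4, 45.6 and 70.2 CPM in the EV plastic libraries and 885, 891 and 1039.6 CPM in the Wisp1 plastic libraries. On collagen it was 14.2, 15.8 and 16.03 CPM in the EV libraries and 1087, 1120.3 and 1057 CPM in the Wisp1 libraries. Every EV collagen library lay below every EV plastic library, and every Wisp1 collagen library lay above every Wisp1 plastic library. The counts do not separate the vector's transcript from that of the resident gene.

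The Wisp1 line exceeded the EV line 18.5-fold on plastic and 70.7-fold on collagen (edgeR's quasi-likelihood test, adjusted p = 3.1e-05 and 2.1e-06). The interaction was 1.94 ± 0.27 (log2, SE), a 3.83-fold ratio of the 2 folds, with a 95% interval from 1.34 to 2.54. Over all genes it did not pass in edgeR (adjusted p = 0.43) nor with the numbered pairs as a block (1.90, adjusted p = 0.078), but it passed in DESeq2 (adjusted p = 2.7e-06) and limma-voom (adjusted p = 0.026). Leaving out EV plastic replicate 1 or EV plastic replicate 3 brought it past the threshold in edgeR (2.12, adjusted p = 0.0056, and 1.63, adjusted p = 0.00015).

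Most of the 3.83-fold ratio lay in the EV line, where Wisp1 was 3.30-fold lower on collagen (adjusted p = 0.00013). In the Wisp1 line it was 1.16-fold higher on collagen, which did not pass (adjusted p = 0.38). In absolute terms the gain over EV was 888 ± 70.5 CPM on plastic and 1073 ± 31.7 CPM on collagen (mean ± SD, n = 3 pairs each). The 3 gains on collagen all exceeded the 3 on plastic, and the exact two-sided permutation test gave p = 0.1, the smallest that 3 against 3 allows.

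**Figure D1:**
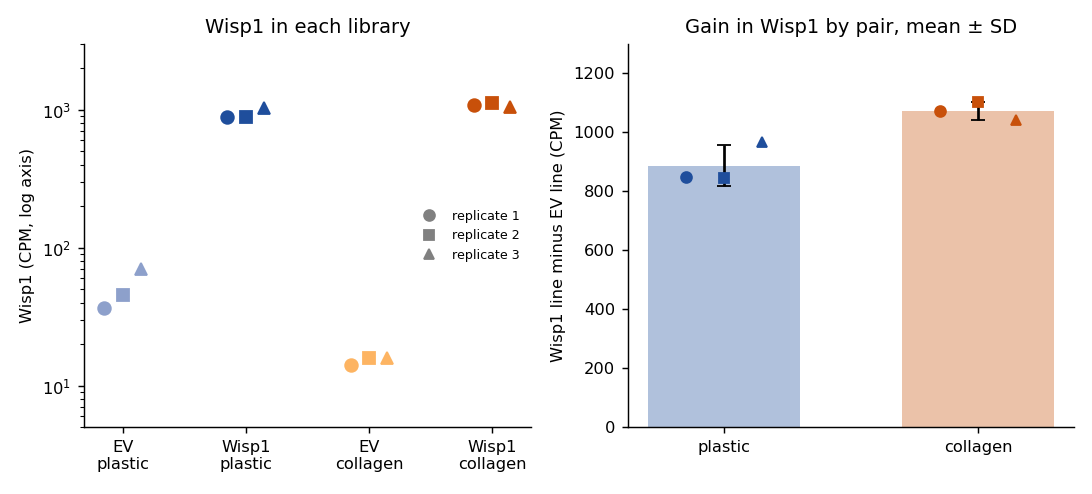
Left, Wisp1 in each of the 12 libraries (CPM, log axis), by group, with marker shape giving the replicate number. Right, the gain of the Wisp1 line over the EV line within each numbered pair (CPM), with bars for the mean and whiskers for the SD. The EV collagen libraries sit at 14.2 to 16.03 CPM, below all EV plastic libraries, and all 3 gains on collagen exceed those on plastic.

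In the planned test no gene's response to the transgene passed as different between the substrates. Of 13953 genes tested, edgeR called 0 (0%) at an adjusted p under 0.05, and 410 (2.94%) had an unadjusted p under 0.05. The 410 were fewer than the 698 that uniform p-values would give, and the reason was not tested. DESeq2 and limma-voom each called 1 gene, Wisp1. For most genes the data bound the interaction: the 95% interval lay within 2-fold in either direction for 12009 genes (86.1%), and for 10237 of the 10316 genes with a mean of at least 5 CPM (99.2%). For the latter it lay within 1.5-fold for 9903 (96.0%). Across all genes the median interaction was 0.0004, and 50.2% were above 0.

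The Wisp1 effects themselves were small on both surfaces. Taken alone, the Wisp1 line differed from EV in 2 genes on plastic (0.0143%), Wisp1 and BC068157, and in 10 on collagen (0.0717%). With the pairs described next as a block these counts were 440 and 358. Across the 10315 genes of at least 5 CPM other than Wisp1, the effects on the 2 substrates correlated with Pearson r = 0.104 and Spearman rho = 0.0943, a description over genes that share the same libraries.

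Within each substrate, an EV and a Wisp1 library with the same replicate number deviated from their group means together in 6 of 6 pairs. The 6 are not independent of each other, because deviations cancel within a group, and the labels do not say what the number marks. With these 6 pairs as a block, edgeR called 70 genes (0.502%), 29 with a more positive Wisp1 effect on collagen (0.208%) and 41 with a more negative one (0.294%), and 2040 had an unadjusted p under 0.05. A block over all 4 groups called 0 genes. The genes named below from this blocked fit were chosen after their values were seen, except where the smallest p-values of the planned test or of a list had already named them.

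The 70 differences were small. The median was 0.27 on the log2 scale (a 1.203-fold ratio of folds), and they ran from 0.16 to 0.80 (1.11-fold to 1.75-fold). All 70 had the same sign without the block, where 37 had an unadjusted p under 0.05. The 3 pair differences on collagen did not overlap the 3 on plastic for all 70, against 2673 of all genes tested (19.2%). In 43 of the 70 the Wisp1 effect had opposite signs on the 2 surfaces in 6 of 6 pairs, against 735 of all genes tested (5.27%), and both shares follow in part from how the 70 were chosen. The last gene called was Heatr1 (adjusted p = 0.0492) and the first not called was Dnajc11 (0.05003).

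The number of calls rested on single pairs. It was 2 without plastic pair 2, 11 without plastic pair 1, 15 without collagen pair 1 and 398 without plastic pair 3, and 65 and 71 without collagen pairs 2 and 3. In limma-voom it was 19, in DESeq2 74 and without the filter on low counts 529. Cyp1b1 was called in 12 of 12 blocked alternatives. Anxa8 was called in 11 of 12, DESeq2 giving it no adjusted p, and Sepw1, Fosl1, Gpx1 and Id3 in 11 of 12, each lost without plastic pair 2 (adjusted p = 0.055, 0.055, 0.081 and 0.13).

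**Figure D2:**
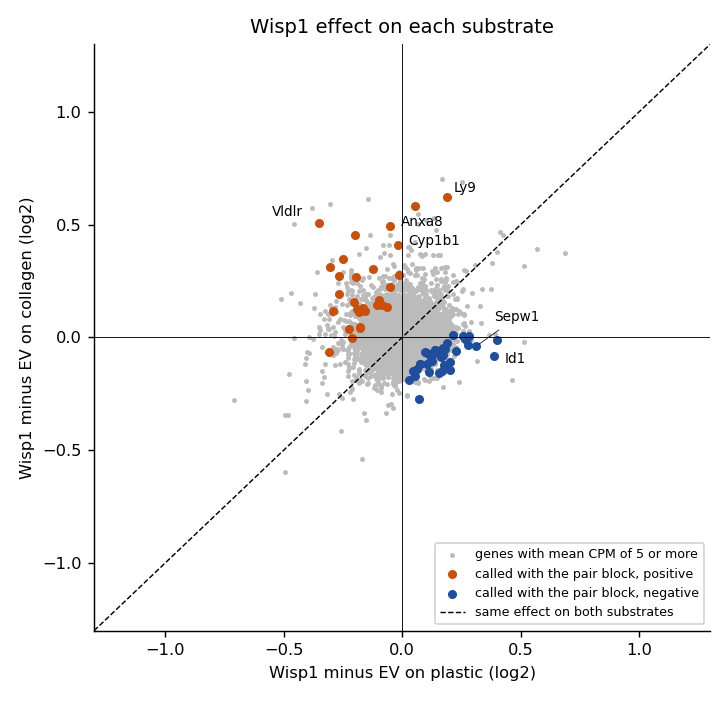
Wisp1 line minus EV line on plastic (horizontal) and on collagen (vertical), both log2, without the pair block. Grey points are the 10315 genes other than Wisp1 with a mean of at least 5 CPM, and coloured points are the 70 genes called with the pair block. Positive genes lie above the dashed line of equal effects and negative genes below it, close to the dense cloud around 0.

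Sequence upstream of 3 of these genes is shown because their products belong to the groups described below. Gbp2 and Irgm1 encode interferon-inducible GTPases, and Plaur the urokinase receptor. The 120 bases before the annotated start are from RefSeq (GRCm38.p6, a later build than the mm9 of the counts), 5′ to 3′ on the gene's strand.
Gbp2, chr3:142620543-142620662, + strand: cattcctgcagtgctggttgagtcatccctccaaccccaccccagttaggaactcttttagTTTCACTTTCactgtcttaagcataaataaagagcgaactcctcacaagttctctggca
Irgm1, chr11:48871421-48871540, - strand: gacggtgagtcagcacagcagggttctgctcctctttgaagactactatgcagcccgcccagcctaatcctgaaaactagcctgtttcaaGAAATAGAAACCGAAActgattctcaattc
Plaur, chr7:24462363-24462482, + strand: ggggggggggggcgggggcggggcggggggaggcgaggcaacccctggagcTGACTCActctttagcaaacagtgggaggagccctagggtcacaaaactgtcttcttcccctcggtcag
Capitals mark GAAA, any 2 bases and GAAA again, the core of the interferon-stimulated response element, in Gbp2 and Irgm1, and TGACTCA, an AP-1 site, in Plaur, each searched on both strands. In Irgm1 2 matches overlap. Gbp2 and Irgm1 also hold the AP-1 letters on the reverse strand (tgagtca), left in lower case. Within 250 bases before the start, the first motif stood at 3.46% and TGACTCA at 5.16% of the 27025 genes with a promoter entry. The first motif stood at 11 of the 21 interferon-stimulated genes with an entry (of 27 tested), and at 2 of the 21 positive and 1 of the 29 negative blocked genes with an entry. TGACTCA stood at 5 of the 21 interferon-stimulated genes and at 3 and 4 of the positive and negative ones. A match is a description of the sequence only.

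Among genes with a more positive effect on collagen, Anxa8 and Cyp1b1 had the smallest adjusted p-values. Anxa8, an annexin that binds phospholipids in the presence of calcium, was at 21.4, 26.6 and 30.8 CPM in EV plastic and 21.2, 26.4 and 28.4 CPM in Wisp1 plastic. On collagen it was at 14.1, 16.2 and 17.1 CPM in EV and 19.6, 23.7 and 23.8 CPM in Wisp1. The groups overlapped on plastic and did not on collagen. The pair differences were -0.01, -0.01 and -0.12 on plastic and 0.47, 0.55 and 0.48 on collagen (log2), and the blocked interaction was 0.55 ± 0.07 (SE, adjusted p = 0.00086). Without the block it was 0.54 ± 0.19 (unadjusted p = 0.015, adjusted p = 0.97).

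Cyp1b1, a cytochrome P450 that metabolises oestrogens and polycyclic hydrocarbons, stood at 42.4, 44.8 and 54.3 CPM in EV plastic and 41.2, 45.2 and 52.9 CPM in Wisp1 plastic. On collagen it stood at 44.4, 48.8 and 49.5 CPM in EV and 58.4, 60.9 and 70.7 CPM in Wisp1. All 3 Wisp1 collagen libraries were thus above the other 9. The blocked interaction was 0.43 ± 0.05 (adjusted p = 0.00086), with pair differences within 0.04 of 0 on plastic and of 0.32 to 0.51 on collagen.

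Further genes of this direction had varied roles. Ntn1, the axon guidance cue netrin-1, had pair differences of -0.03, -0.19 and -0.14 on plastic and 0.37, 0.18 and 0.34 on collagen, with a blocked interaction of 0.42 (adjusted p = 0.0064). Abhd4, an N-acyl phospholipid lipase, gave 0.44 (0.012) and Wbp5 0.27 (0.0064). Ly9, a SLAM family receptor best known from lymphocytes, was at 9.76 to 11.4 CPM in EV plastic, 11.4 to 13.2 in Wisp1 plastic, 10.2 to 10.96 in EV collagen and 15.8 to 16.8 in Wisp1 collagen. Its pair differences were above 0 in 6 of 6 pairs and larger on collagen (blocked interaction 0.43, adjusted p = 0.029), and the part of the leukocyte markers given above in this was not tested. Xk, a membrane protein of the Kell blood group complex, showed 0.52 (0.033) and Vldlr, a lipoprotein and reelin receptor, 0.80 (0.018), the largest of the 70. Vldlr was at 6.90, 10.2 and 4.84 CPM in EV plastic, and its pair differences were -0.37, -0.52 and 0.06 on plastic and 0.55, 0.33 and 0.65 on collagen. It was called in 6 of 12 blocked alternatives. Col7a1, the anchoring fibril collagen, had 0.27 (0.029) and the epithelial adhesion gene Epcam 0.25 (0.047), the latter with pair differences of -0.17 to -0.30 on plastic and -0.07 to 0.15 on collagen.

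Among genes with a more negative effect on collagen, several were higher in the Wisp1 line on plastic and overlapped between the lines on collagen, where the EV level was higher than on plastic. Fosl1, the AP-1 subunit Fra-1, was at 109, 99.7 and 109 CPM in EV plastic and 135, 122 and 129 CPM in Wisp1 plastic. On collagen it was at 205, 216 and 219 CPM in EV and 199, 216 and 227 CPM in Wisp1. The 3 pairs on plastic differed by 0.24 to 0.30 and those on collagen by -0.04 to 0.05, and the blocked interaction was -0.27 ± 0.04 (adjusted p = 0.0032).

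Plaur, which anchors urokinase at the cell surface, followed the same order. It was at 68.7, 66.5 and 76.2 CPM in EV plastic, 83.3, 81.6 and 87.3 CPM in Wisp1 plastic, 174, 169 and 169 CPM in EV collagen and 169, 169 and 177 CPM in Wisp1 collagen. The groups were separate on plastic and overlapped on collagen (blocked interaction -0.25, adjusted p = 0.012). Collagen raised both genes on average over the 2 lines, Fosl1 by 0.87 and Plaur by 1.15 on the log2 scale (edgeR, adjusted p = 1.3e-09 and 4.4e-11).

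The selenoprotein genes Sepw1 and Gpx1, whose products act in redox defence, were higher in the Wisp1 line in 3 of 3 pairs on plastic, although the Sepw1 groups overlapped there. Sepw1 was at 48.3, 41.7 and 38.3 CPM in EV plastic, 57.3, 54.6 and 47.1 in Wisp1 plastic, 60.6, 68.8 and 63.2 in EV collagen and 57.5, 67.2 and 62.8 in Wisp1 collagen (blocked interaction -0.35, adjusted p = 0.0030). Gpx1, the main cytosolic glutathione peroxidase, had pair differences of 0.19 to 0.31 on plastic and -0.06 to 0.02 on collagen (-0.28, 0.0041). Of 14 selenoprotein genes tested, a list drawn up after these 2 had been seen among the calls, the 2 were called with the block (against 0.502% of all genes, from which nothing is read), and 7 had an interaction above 0.

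Id3 and Id1 encode inhibitors of basic helix-loop-helix factors that BMP signalling induces. Id3 had pair differences of 0.23, 0.32 and 0.27 on plastic and -0.08, 0.03 and 0.05 on collagen (blocked interaction -0.28, adjusted p = 0.0090). For Id1 they were 0.27, 0.49 and 0.39 on plastic and -0.26, -0.07 and 0.05 on collagen (-0.47, 0.013). Collagen replicate 1 was low in both lines, with Id1 at 22.2 CPM in EV and 18.6 CPM in Wisp1 against 32.9 to 35.1 CPM in the other 4 collagen libraries. Without the block the unadjusted p was 0.22 for Id3 and 0.20 for Id1. The list of 10 BMP targets tested had a median interaction of -0.15, with 4 members above 0, and without EV collagen replicate 2 the median was 0.06. Its 2 members with the smallest p without the block, Smad6 and Id4, had interactions of 0.27 ± 0.17 and 0.34 ± 0.23.

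The collagen receptor subunit Itga2 was the 1 member called with the block among 20 collagen receptors and integrins (against 0.502% of all genes, from which nothing is read). Its pair differences were 0.01, 0.04 and 0.03 on plastic and -0.30, -0.19 and -0.08 on collagen (blocked interaction -0.22, adjusted p = 0.039). In CPM it was at 155, 174 and 162 in EV collagen and 126, 152 and 153 in Wisp1 collagen, against 104 to 137 on plastic in both lines. The list's median interaction was -0.02, and 9 of 20 members were above 0. In edgeR the smallest p-values on the list belonged to the scavenger receptor gene Cd36 (-1.49 ± 0.45, unadjusted p = 0.0056, at a mean of 0.68 CPM) and the laminin receptor subunit gene Itga6 (-0.14 ± 0.06, unadjusted p = 0.031). Adam19, a membrane metalloprotease, was higher in the Wisp1 line in 3 of 3 pairs on plastic (0.11 to 0.25) and lower in 3 of 3 on collagen (-0.10 to -0.22), with a blocked interaction of -0.31 (adjusted p = 0.012). The macrophage growth factor gene Csf1 gave -0.22 (0.023), the complex I subunit gene Ndufb7 -0.23 (0.038) and the palmitoyltransferase gene Zdhhc8 -0.20 (0.029).

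Metal-handling genes were also among the negative ones. Mt2, a metallothionein that binds zinc, was at 40.9, 41.7 and 16.4 CPM in EV plastic and 55.0, 56.5 and 20.5 CPM in Wisp1 plastic. On collagen it was at 36.1, 26.1 and 42.9 CPM in EV and 37.2, 22.0 and 45.1 CPM in Wisp1. Replicate 3 was low in both lines on plastic, and the blocked interaction was -0.43 ± 0.07 (adjusted p = 0.013) where the unblocked one was -0.41 ± 0.67 (adjusted p = 0.97). The zinc exporter gene Slc30a1 (-0.34, 0.043) and the zinc transporter gene Slc39a13 (-0.24, 0.033) were called too, 3 of 19 metallothionein and zinc transporter genes tested, of which 8 had an interaction above 0. This list too was drawn up after the calls were seen, and nothing is read from its count against the 0.502% of all genes.

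**Figure D3:**
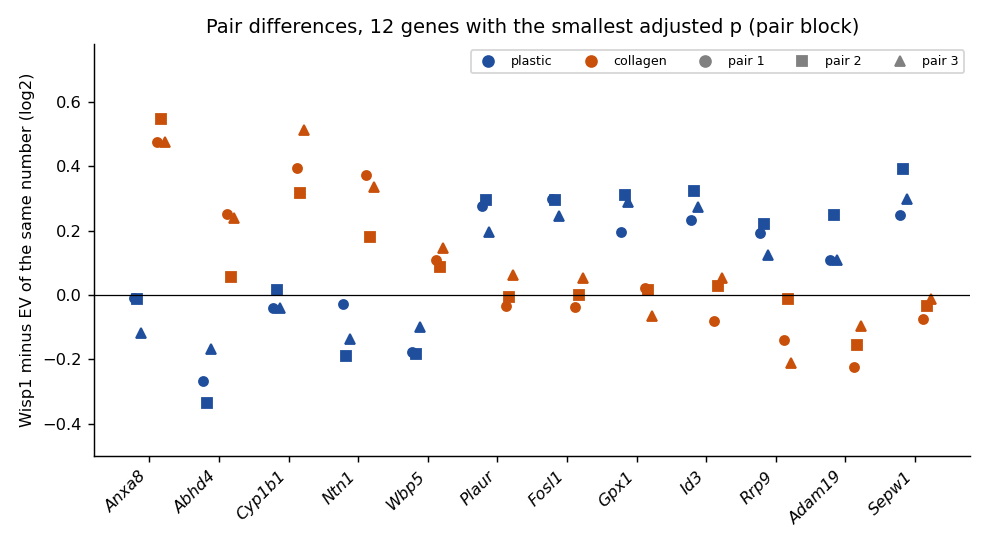
Log2 difference between the Wisp1 and EV library of the same number (vertical) for the 12 genes with the smallest adjusted p in the blocked fit, plastic in blue and collagen in orange, with marker shape giving the pair. For the 5 genes on the left the collagen pairs lie above the plastic pairs, and for the 7 on the right the plastic pairs lie above the collagen pairs. No gene has overlapping pairs.

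Interferon-stimulated genes had a more positive Wisp1 effect on collagen throughout the list, although few passed alone. The interaction was above 0 in 27 of 27 members tested, with a median of 0.26 against 0.0004 over all genes, and the median Wisp1 effect was -0.04 on plastic and 0.27 on collagen. In the planned test 0 of 27 passed and 4 had an unadjusted p under 0.05 (Ifih1, Parp9, Gbp2 and Parp14), against 2.94% of all genes. With the block 2 were called, against 0.502% of all genes, and nothing is read from these counts. The median member differed by 0.08, -0.13 and 0.01 in the plastic pairs and 0.25, 0.20 and 0.11 in the collagen pairs. The members are co-regulated and not independent of each other.

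Ifih1, the RNA sensor MDA5, was at 13.6, 15.6 and 15.3 CPM in EV plastic, 12.5, 13.4 and 13.5 in Wisp1 plastic, 15.1, 14.9 and 14.5 in EV collagen and 16.8, 16.9 and 15.6 in Wisp1 collagen (interaction 0.33 ± 0.09, adjusted p = 0.97, blocked adjusted p = 0.054). All 3 Wisp1 libraries were above all 3 EV libraries on collagen and below all 3 on plastic. Parp9, whose product pairs with an ubiquitin ligase in the interferon response, had an interaction of 0.30 ± 0.10 (unadjusted p = 0.010). The ADP-ribosyltransferase gene Parp14 had pair differences of -0.09, -0.22 and -0.25 on plastic and 0.16, 0.10 and 0.11 on collagen (blocked interaction 0.32, adjusted p = 0.029). Gbp2 gave 0.51 (0.039), and Irgm1, which was not on the list, 0.35 (0.034). Summed over the 30 listed genes, the level was 378 to 420 CPM in EV plastic, 373 to 384 in Wisp1 plastic, 328 to 371 in EV collagen and 347 to 402 in Wisp1 collagen. The 2 lines overlapped on each substrate, and EV collagen lay below both plastic groups. The list median rested in part on EV plastic replicate 2: without it the median was 0.07 and 22 members were above 0. It was highest, 0.38, without Wisp1 collagen replicate 3.

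Antigen presentation genes, which interferon also induces, had an interaction above 0 in 17 of 21 and a median of 0.13. Psme1, a subunit of the PA28 proteasome activator, was at 72.5, 82.1 and 74.9 CPM in EV plastic and 73.1, 77.2 and 77.5 in Wisp1 plastic. On collagen it was at 76.4, 72.0 and 71.3 CPM in EV and 97.1, 86.3 and 82.5 in Wisp1, which put all Wisp1 collagen libraries above the other 9. Its blocked interaction was 0.28 (adjusted p = 0.012), and that of its partner subunit Psme2 did not pass (unblocked 0.20, blocked adjusted p = 0.057). Without Wisp1 plastic replicate 1 the median of the list was 0.08.

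Ribosome biogenesis genes had a more negative Wisp1 effect on collagen. This list was drawn up after 7 of its genes had been seen among the 70, so its counts are a description only. Of its members, 1 of 44 had an interaction above 0, the median was -0.12, and the median Wisp1 effect was 0.07 on plastic and -0.05 on collagen. The 7 were Rrp9, a U3 snoRNP protein (-0.30, adjusted p = 0.012), Rrp12 (-0.31, 0.029), the pre-60S factor Bop1 (-0.22, 0.029), Ppan (-0.21, 0.034), Pdcd11 (-0.21, 0.034), Heatr1 (-0.23, 0.049) and the PGC-1 related coactivator Pprc1 (-0.24, 0.029). Rrp9 was at 83.7, 77.0 and 95.4 CPM in EV plastic, 95.8, 89.7 and 103.9 in Wisp1 plastic, 68.1, 73.7 and 76.5 in EV collagen and 61.7, 73.1 and 66.1 in Wisp1 collagen. Without Wisp1 collagen replicate 1 the median of the list was -0.04 and 8 members were above 0.

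**Figure D4:**
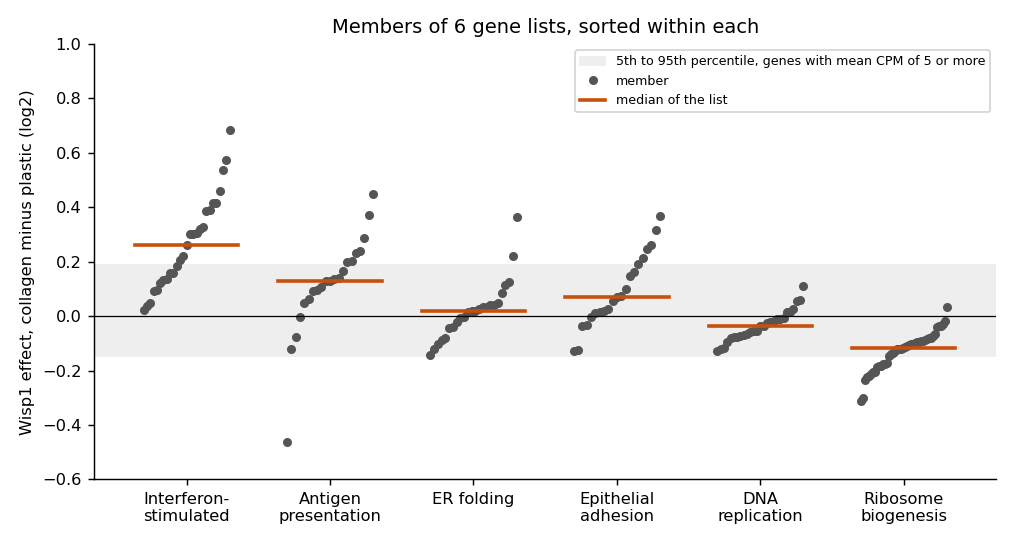
Interaction (log2, without the block) of each tested member of 6 gene lists, sorted within the list, with the list median in orange and the 5th to 95th percentile of genes of at least 5 CPM shaded (-0.15 to 0.19). All 27 interferon-stimulated members are above 0, with a median of 0.26, 43 of 44 ribosome biogenesis members are below 0, and the medians of the endoplasmic reticulum folding and DNA replication lists are within 0.04 of 0.

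The medians of the other pathway lists ran from -0.07 (NF-kB targets and chemokines, 10 of 25 above 0) to 0.09 (basal and squamous genes, 7 of 10). DNA replication genes had a median of -0.04 (6 of 27 above 0), mitosis genes 0.003 (14 of 24), TGF-beta and SMAD targets 0.06 (12 of 18), YAP and TAZ targets -0.05 (6 of 20), focal adhesion genes -0.04 (9 of 23), collagen chains and matrix proteins 0.003 (15 of 29) and cholesterol synthesis genes 0.02 (14 of 23). Hypoxia and glycolysis genes had a median of 0.07 (20 of 25 above 0), which was -0.05 (4 above 0) without Wisp1 collagen replicate 1. Epithelial adhesion genes had 0.07 (16 of 21 above 0), or 0.01 without that library. In the planned test no member of any of these lists passed.

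The members with the smallest unadjusted p-values on these lists had small interactions where they were well expressed. In edgeR the receptor kinase gene Axl gave -0.15 ± 0.06 (unadjusted p = 0.027) and the junction gene Jup 0.25 ± 0.10 (unadjusted p = 0.032). The sterol isomerase gene Ebp gave 0.20 ± 0.07 (unadjusted p = 0.011) and the talin gene Tln1 -0.16 ± 0.08 (unadjusted p = 0.057). For the replicative helicase gene Mcm5 it was -0.13 ± 0.07, for the spindle gene Nusap1 0.15 ± 0.08, for Tgfb2 0.24 ± 0.13, for the oxidoreductase gene Ero1l 0.25 ± 0.15 and for the desmosomal cadherin gene Dsg2 0.15 ± 0.07. Fbln1 and Col1a1, the matrix genes with the smallest p, were at means of 0.32 and 0.64 CPM (1.14 ± 0.42 and -1.46 ± 0.54).

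Averaged over the substrates, 27 genes differed between the lines (0.194%), 17 higher and 10 lower in the Wisp1 line. All 27 had the same sign on both surfaces, and 21 had the larger effect on collagen. For the 26 other than Wisp1 the median size of the interaction was 0.14 on the log2 scale. Of the 27, 4 had an unadjusted interaction p under 0.05 (Wisp1, Ly9, Gpr116 and Epb4.1l4a), against 2.94% of all genes. With the block 1 of them, Ly9, had its interaction called, against 0.502% of all genes. With the block the average effect was called in 654 genes.

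Endoplasmic reticulum chaperone genes were among those higher in the Wisp1 line on both surfaces. Hsp90b1, the chaperone Grp94, was at 1072, 1014 and 1046 CPM in EV plastic and 1237, 1194 and 1238.5 CPM in Wisp1 plastic, and at 877, 909 and 832 CPM in EV collagen and 1035, 1091 and 975 CPM in Wisp1 collagen. It rose by 0.24 ± 0.03 on average (log2, SE, adjusted p = 0.0086), by 0.23 on plastic and 0.24 on collagen, and its interaction was 0.02 ± 0.07. The disulfide isomerase genes Pdia6 and Pdia4 rose by 0.24 and 0.23 (adjusted p = 0.022 and 0.028), with interactions of 0.02 ± 0.08 and 0.03 ± 0.08. For Hspa5, the chaperone BiP, the interaction was -0.08 ± 0.08, and for the lectin chaperone gene Calr -0.12 ± 0.15. Over 24 endoplasmic reticulum folding genes the median interaction was 0.02, with 14 above 0 and 0 with an unadjusted p under 0.05 (against 2.94% of all genes). The list's median pair difference was 0.13 to 0.18 on plastic and 0.14 to 0.17 on collagen.

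Other genes with an average effect had intervals of the interaction that included 0. Esrp1, an epithelial splicing regulator, fell by 0.26 ± 0.04 (adjusted p = 0.0064), from 40.8 to 42.5 CPM in EV plastic to 33.3 to 36.6 in Wisp1 plastic and from 42.0 to 43.2 in EV collagen to 33.6 to 37.3 in Wisp1 collagen, with an interaction of 0.01 ± 0.07. Iqgap2, a Rac and Cdc42 scaffold, fell by 0.68 ± 0.07 (adjusted p = 0.00087), with an interaction of -0.22 ± 0.15. The potassium channel beta subunit gene Kcnab2 rose by 0.28 ± 0.04 and the GPI-anchored protein gene Ly6e by 0.44 ± 0.06 (adjusted p = 0.0064 and 0.0086), with interactions of 0.02 ± 0.08 and 0.03 ± 0.12. BC068157, Spna1 and Chrdl1 were also among the 10 with the smallest p, but were under 0.5 CPM in every library. For Chrdl1, a BMP antagonist, 0 counts stood in 2 EV collagen libraries, and its interaction of 1.27 ± 1.00 depends on the prior count.

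The larger single-substrate differences that met the naming rule without a block call were Gpr116, an adhesion receptor at 5.84 to 6.63 CPM in EV plastic, 6.46 to 7.97 in Wisp1 plastic, 5.85 to 6.56 in EV collagen and 8.95 to 11.3 in Wisp1 collagen (interaction 0.53 ± 0.15, unadjusted p = 0.0032, blocked adjusted p = 0.056), and Dsc2, a desmosomal cadherin at 5.36 to 6.68 CPM in the plastic libraries, 5.90 to 6.39 in EV collagen and 8.32 to 8.71 in Wisp1 collagen (0.50 ± 0.13, 0.0014, blocked adjusted p = 0.057). Epb4.1l4a, a band 4.1 family gene, was the reverse, at 9.81 to 11.7 CPM in EV plastic, 9.18 to 9.93 in Wisp1 plastic, 10.8 to 11.8 in EV collagen and 7.28 to 8.08 in Wisp1 collagen (-0.37 ± 0.11, 0.0051, blocked adjusted p = 0.080). The other positive genes of that rule, Tspan12, Matn2 and Manba, had interactions of 0.29 to 0.34, and the other negative ones, Qtrt1, Acy1, Trub2 and Bbs9, of -0.23 to -0.26. None passed over all genes (adjusted p = 0.97 for each).

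The same interaction read the other way is the collagen effect in the Wisp1 line less that in the EV line. Averaged over the lines, collagen changed 7478 genes (53.6%), 3878 higher (27.8%) and 3600 lower (25.8%). Of the 7478, 7458 (99.7%) had the same sign in both lines, which follows in part from choosing them by the mean of the 2 collagen effects. Across the 10316 genes of at least 5 CPM the 2 collagen effects correlated with r = 0.927 and rho = 0.904, a description over genes. For the 7478 the median size of the collagen effect was 0.26 and that of the interaction 0.07. An unadjusted interaction p under 0.05 was found for 231 of them (3.09%), against 2.94% of all genes. The 391 genes changed at least 2-fold, chosen by the same mean, had the same sign in both lines, and for 124 of them the interval of the interaction lay within 2-fold.

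Among named collagen-responsive genes, Fam102a rose by 2.27 in the EV line and 2.25 in the Wisp1 line (log2), the stromelysin gene Mmp3 by 2.22 and 2.28, and the pentraxin gene Nptx1 by 2.16 and 2.25. Their interactions were -0.02 ± 0.11, 0.07 ± 0.38 and 0.09 ± 0.22. Ngef and Gpnmb were higher on collagen by 1.96 and 2.14 and by 1.88 and 1.93, and Fgfbp1, Prss23 and Ctsw were lower, with interactions of 0.39 ± 0.51, 0.18 ± 0.22 and -0.02 ± 0.52. The intervals of the more variable genes do not exclude a 2-fold difference.

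**Figure D5:**
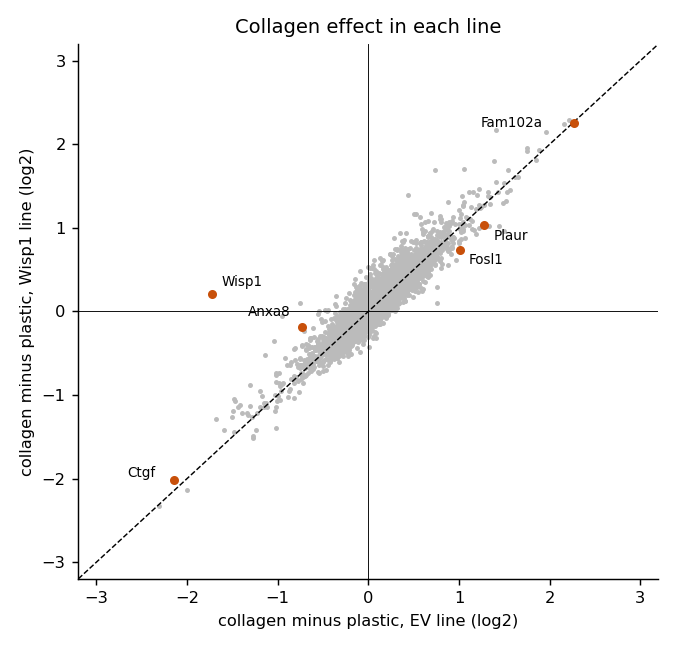
Collagen minus plastic in the EV line (horizontal) and in the Wisp1 line (vertical), log2, for genes of at least 5 CPM. Points follow the dashed line of equal effects (r = 0.927), and Wisp1 stands apart, 1.72 lower on collagen in the EV line and 0.21 higher in the Wisp1 line.

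No other CCN gene had an interaction that passed. Ctgf (Ccn2), a target of TGF-beta and YAP, was at 165, 162 and 251 CPM in EV plastic, 159, 158 and 214 in Wisp1 plastic, 42.2, 46.7 and 42.2 in EV collagen and 45.7, 52.1 and 32.9 in Wisp1 collagen. On collagen it fell by 2.14 in the EV line and 2.02 in the Wisp1 line (log2), and its interaction was 0.12 ± 0.30. Cyr61 (Ccn1) had -0.19 ± 0.37. Nov (Ccn3), at 0.38 to 3.50 CPM, was higher on collagen by 1.62 in the EV line and 2.34 in the Wisp1 line, with an interaction of 0.72 ± 0.42 (adjusted p = 0.97). Wisp2 was at 0.15 to 1.00 CPM (0.08 ± 0.61), and Wisp3 was too low to be tested.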

How the data were processed

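Poly(A) RNA was sequenced from stranded libraries, per the labels' protocols. The deposited values are whole-number read counts per gene symbol, 1 file a library, and the submitters' processing notes name STAR, BWA, HTSeq, limma, R 3.2.4 and build mm9, with no roles. Rows without a gene (no feature, 10.2 to 10.95%, ambiguous, 1.35 to 2.08%, not aligned, 1.84 to 3.05%, each of the library's total) were dropped, leaving 34591 symbols.

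Counts of the 12 libraries were fitted in edgeR 4.0.16 (R 4.3.3) with filterByExpr (13953 genes kept), TMM scaling and the robust quasi-likelihood test, 1 mean a group, and p-values were adjusted over all genes tested (Benjamini-Hochberg, threshold 0.05). Pair differences used log2(CPM) with a prior count of 0.5. A second fit took same-numbered EV and Wisp1 libraries of a substrate as a block. Their deviations from the group means correlated at r = 0.106 to 0.448 in 6 of 6 pairs. On the same substrate, different numbers gave -0.381 to 0.0999. Deviations cancel within a group, so these values and those of the 6 pairs are tied, and their contrast is in part arithmetic. Across substrates, different numbers gave -0.311 to 0.324, which overlaps the range of the 6 pairs, and the same number gave -0.126 to 0.27. The pairing comes from this check, not from the labels. DESeq2 1.42.0 and limma-voom 3.58.1, other scalings, filters, thinned libraries (1 fixed depth) and each library left out were alternatives. Replicates differed by more than counting noise (chi-square per degree of freedom 2.68 to 26.1), so all 12 were kept, and the fit was tested on simulated data.

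Named were the CCN genes, genes called or among the 10 smallest interaction p-values in each direction at a mean of 5 CPM or more, the 10 smallest p-values of the average Wisp1 effect, the 5 largest collagen changes each way, and the 2 smallest p-values of each list described; some named items are not reported here. The lists, members and named chaperones were chosen with earlier results of these data known, and the ribosome biogenesis, selenoprotein and metal lists after the blocked calls were seen. At depths of 37552858 to 94401699 counts, 3 counts correspond to 0.0318 to 0.0799 CPM.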

Additional observations from a re-analysis of the deposited data

Results flagged for a closer look

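The Wisp1 effects on the 2 substrates differed, by the test of the difference in the blocked fit, for the 35 genes named above from its 70 calls. Values are the Wisp1 effect on collagen minus that on plastic (log2). The 14 positive genes were Vldlr (0.80), Anxa8 (0.55), Xk (0.52), Gbp2 (0.51), Abhd4 (0.44), Cyp1b1 (0.43), Ly9 (0.43), Ntn1 (0.42), Irgm1 (0.35), Parp14 (0.32), Psme1 (0.28), Col7a1 (0.27), Wbp5 (0.27) and Epcam (0.25). The 21 negative genes were Id1 (-0.47), Mt2 (-0.43), Sepw1 (-0.35), Slc30a1 (-0.34), Adam19 (-0.31), Rrp12 (-0.31), Rrp9 (-0.30), Gpx1 (-0.28), Id3 (-0.28), Fosl1 (-0.27), Plaur (-0.25), Pprc1 (-0.24), Slc39a13 (-0.24), Heatr1 (-0.23), Ndufb7 (-0.23), Bop1 (-0.22), Csf1 (-0.22), Itga2 (-0.22), Pdcd11 (-0.21), Ppan (-0.21) and Zdhhc8 (-0.20).

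In 17 of the 35 the Wisp1 line was on opposite sides of the EV line on the 2 substrates in 6 of 6 pairs, 8 of them positive and 9 negative. Over all genes tested this held for 735 (5.27%), and the share among the 35 follows in part from how they were chosen. None of the 35 passed without the block.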

How the results depend on the processing

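The count of 0 interaction calls became 1 (Wisp1) in DESeq2 and in limma-voom (interaction 1.94 and 1.89) and ran from 0 to 1 when each library was left out, with Wisp1 between 1.63 and 2.12. The replicate block within each substrate gave 70 interaction and 654 average Wisp1 calls. The average Wisp1 count of 27 was 72 in DESeq2, 43 with no filter, 9 with all 18 libraries in one fit and 13 to 28 with each library left out, and the average collagen count of 7478 was 4155 with all 18 libraries in one fit. The blocked count of 70 was 19 in limma-voom, 529 with no filter and 2 to 398 when each pair was left out. The interactions of Wisp2 and Fgfbp1 changed sign without Wisp1 collagen replicate 1 (-0.55 and -0.21) and ran up to 0.33 and 0.63 with another library left out, neither of them called in any fit, and the cause was not tested. No alternative moved the median of all genes by more than 0.0055 (log2). Of the 2108 values under unblocked alternatives for the named genes, 2087 kept their side of the threshold without a change of sign larger than the SE of the planned fit. A value near 0 that changed sign by less than that SE is counted among the 2087. The planned fit called no gene, so no call could be lost, and the 2087 say little about how stable the interactions were. The 35 genes named from the blocked fit were called in 273 of 420 cases over its 12 alternatives, from 4 to 12 a gene.

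With 3 libraries a group the median SE of the interaction was 0.10 (0.07 with the block). The blocks were planned as alternatives to the test without a block. The further alternatives built on them were chosen after seeing the data, and the support for the pairing was read from these same libraries.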
